A study of Mus musculus with 8 samples.

Results

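The killer cell lectin-like receptors described here are the products of 9 mouse genes: Klrd1 (CD94), Klrc1 (NKG2A), Klrc2 (NKG2C), Klrk1 (NKG2D), Klre1, Klri1, Klri2, Klrb1c (NK1.1) and Klrg1. They were taken by symbol, as a named family and not by any measured value, from the 33696 genes that each of 6 single-cell mRNA libraries lists, and all 9 were found once in each library. Their Ensembl identifiers are ENSMUSG00000030165 (Klrd1), ENSMUSG00000030167 (Klrc1), ENSMUSG00000052736 (Klrc2), ENSMUSG00000030149 (Klrk1), ENSMUSG00000050241 (Klre1), ENSMUSG00000067610 (Klri1), ENSMUSG00000043932 (Klri2), ENSMUSG00000030325 (Klrb1c) and ENSMUSG00000030114 (Klrg1).

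The libraries were made from tumour-bearing livers of male C57BL/6 mice, 3 from knockout mice and 3 from controls, with the droplet-based 10x method that reads the 3′ end of each mRNA. Knockout mice carried Ncr1-iCre and floxed Nr4a1 (Ncr1iCre, Nr4a1fl/fl), so that Cre is driven in cells that express Ncr1, a receptor of NK cells and innate lymphoid cells; control mice carried the same floxed Nr4a1 alleles without Cre. Every mouse of both genotypes had received, at 8 to 10 weeks of age, a hydrodynamic tail vein injection of CRISPR-Cas9 plasmids against Trp53 with a c-Myc transposon and SB13 transposase, and livers were taken 4 to 5 weeks later. Knockout library 3 pooled 2 mice and control library 3 pooled 3 mice, and the labels do not give the number of mice for the others. Nr4a1 encodes the nuclear receptor Nur77, and the design asks what its loss in Ncr1-expressing cells changes in these livers. In NK-like cells, assigned by marker genes, Nr4a1 had 167, 8.61 and 80.4 CPM (the UMIs of the gene scaled to a fixed total of all UMIs of that class and library) in the libraries labelled knockout 1, 2 and 3, against 89.2, 32.8 and 46.7 CPM in controls 1, 2 and 3, so the genotypes overlapped. The floxed segment is not given in the labels, and 3′ tags outside it would not check the deletion; knockout hereafter means a library labelled so. Ncr1, whose locus drives Cre, had 205, 499 and 276 CPM in knockouts and 750, 650 and 635 CPM in controls.

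Killer lectin receptors sit on NK cells, type 1 innate lymphoid cells (ILC1) and some T cells, where they set the balance between attack and restraint. CD94 forms a pair with NKG2A, which inhibits, or with NKG2C, which activates through the adaptor DAP12 (Tyrobp), and both pairs read the non-classical class I molecule Qa-1 (H2-T23). NKG2D activates through DAP10 (Hcst) when it meets stress-induced ligands of the RAE-1, MULT1 (Ulbp1) and H60 families. In rodents Klre1 pairs with Klri1, which inhibits, or Klri2, which activates; NK1.1 is the activating receptor by which NK cells are sorted in C57BL/6 mice; and Klrg1 is an inhibitory receptor of mature lymphocytes that binds E-, N- and R-cadherin (Cdh1, Cdh2 and Cdh4).

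In the RefSeq order of genes the 9 lie on chromosome 6, with Klrg1 apart from the others. Klrb1c sits among Klrb1a, Klrb1, Klrb1b and Klrb1f, and Klre1, Klrd1, Klrk1, Klrc3, Klrc2, Klrc1, Klri1 and Klri2 follow one another beyond Cd69. RefSeq promoter sequence (build GRCm38.p6) was at hand for 6 of the 9 genes. The 250 bases before the start are shown for 5 that are expressed together in NK-like cells and that share one short stretch of letters. Capitals mark ACCACA or its reverse complement TGTGGT, the core letters of Runx sites; the motif was chosen after the promoters were looked at.
Klrc1, chr6:129678974-129679223, minus strand: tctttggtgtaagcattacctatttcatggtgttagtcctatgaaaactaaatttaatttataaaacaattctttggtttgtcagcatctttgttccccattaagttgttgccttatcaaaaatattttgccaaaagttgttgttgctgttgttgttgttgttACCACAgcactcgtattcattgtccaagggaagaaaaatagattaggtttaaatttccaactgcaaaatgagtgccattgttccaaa
Klrc2, chr6:129660597-129660846, minus strand: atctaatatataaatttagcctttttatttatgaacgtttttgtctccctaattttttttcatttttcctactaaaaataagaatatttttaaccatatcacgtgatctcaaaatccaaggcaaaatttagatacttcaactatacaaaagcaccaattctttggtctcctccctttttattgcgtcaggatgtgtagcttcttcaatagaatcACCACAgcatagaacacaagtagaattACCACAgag
Klrk1, chr6:129623865-129624114, minus strand: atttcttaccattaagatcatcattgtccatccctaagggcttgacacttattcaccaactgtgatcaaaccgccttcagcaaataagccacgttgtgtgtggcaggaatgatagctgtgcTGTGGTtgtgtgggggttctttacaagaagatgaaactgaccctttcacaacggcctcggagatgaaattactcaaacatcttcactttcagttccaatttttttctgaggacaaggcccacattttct
Klre1, chr6:129577963-129578212, plus strand: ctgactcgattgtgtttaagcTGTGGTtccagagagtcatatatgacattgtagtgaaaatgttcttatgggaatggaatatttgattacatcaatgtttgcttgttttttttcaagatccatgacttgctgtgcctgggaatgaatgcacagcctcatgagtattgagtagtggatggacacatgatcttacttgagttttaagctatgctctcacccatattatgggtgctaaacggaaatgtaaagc
Klrb1c, chr6:128788642-128788891, minus strand: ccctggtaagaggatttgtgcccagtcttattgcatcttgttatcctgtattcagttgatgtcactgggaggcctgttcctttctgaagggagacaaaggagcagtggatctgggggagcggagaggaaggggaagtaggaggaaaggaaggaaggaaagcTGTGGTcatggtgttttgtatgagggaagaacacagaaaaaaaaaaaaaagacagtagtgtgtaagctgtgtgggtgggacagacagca
The motif begins 87 bases before the start in Klrc1, 36 and 9 bases before it in Klrc2, 129 in Klrk1, 229 in Klre1 and 89 in Klrb1c. The table has 8 windows for the 6 genes, with a pair each for Klrc2 and Klre1, of which the one farthest upstream is shown. The motif was in 6 of the 8 windows, on either strand, and not in that of Klri1 or the other one of Klre1; 4614 of all 32851 windows of that length held it (14%). TCACAC or its reverse complement GTGTGA, letters found in T-box sites that do not overlap the other motif, was in 1 of the 8 windows and in 4039 of the 32851 (12.3%). These are matches of letters and not binding sites.

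After filters 20094 cells were kept, 2715, 134 and 4870 in knockout libraries 1, 2 and 3 and 2639, 547 and 9189 in control libraries 1, 2 and 3, with medians of 1924.5 to 3868 unique molecules (UMIs) per cell. Both libraries numbered 2 stood apart: barcodes with at least 500 UMIs had a median of 75.1% mitochondrial counts in knockout 2 and 27.9% in control 2, against 6.7% to 10.0% in the other 4. Libraries shared 0 to 14 cell barcodes per pair. Cells were assigned by UMIs of marker genes that exclude the 9 receptors, which gave 975 NK-like cells (69, 30 and 132 in knockouts 1, 2 and 3; 209, 127 and 408 in controls 1, 2 and 3), 159 ILC1-like cells and 2128 CD8 T-like cells. None of the 19 NK markers was at 0 in the NK-like cells of any library, and their summed level was 20941, 18087 and 23638 CPM in knockouts 1, 2 and 3 and 19762, 18457 and 20889 CPM in controls 1, 2 and 3. Markers of T cells summed to 542 to 807 CPM in knockout NK-like cells and 567 to 711 CPM in control ones, and Cd3e averaged 0.654 CPM. Trbc1 and Trbc2 averaged 340 and 228 CPM. ILC1 markers (11 genes) summed to 189 to 267 CPM in knockout and 248 to 336 CPM in control NK-like cells. The calls used the NK markers apart from Ncr1, a cap on UMIs of 4 T cell genes (Cd3e, Cd3d, Cd3g and Trac) and the ILC1 markers. These levels are thus no independent check of the class. All levels below are CPM per library and class; 3′ counting gives about 1 tag per mRNA, so levels were not divided by transcript length, and they compare 1 gene between cells rather than genes with each other. A lower level cannot be told apart from a smaller share of cells carrying the mRNA unless shares of cells are given.

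**Figure D1:**
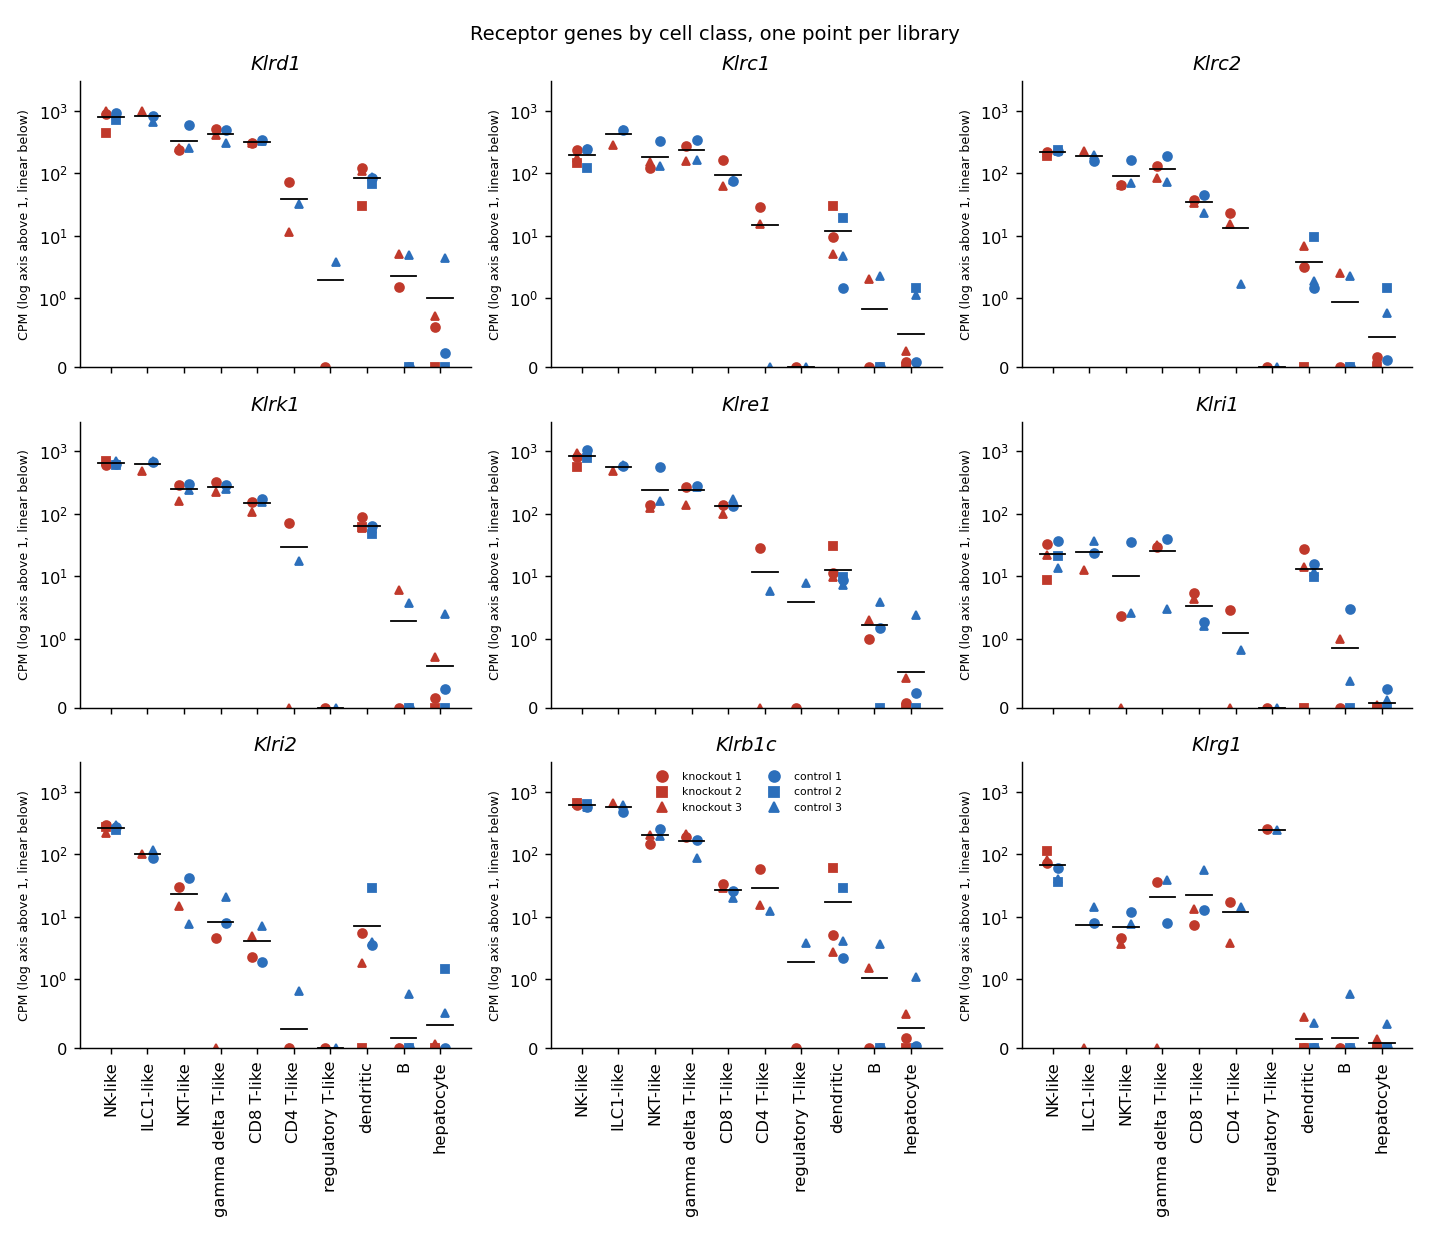
Level of each of the 9 genes (CPM, log axis above 1 and linear below) in 10 cell classes; each point is 1 library and black lines are means. Klri2 stands highest in NK-like cells, Klrb1c in NK-like and ILC1-like cells (623 and 585 on average), Klrd1 and Klrk1 extend to dendritic cells, and Klrg1 peaks in regulatory T-like cells.

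Klrd1, the CD94 chain shared by the NKG2A and NKG2C pairs, was among the most widespread of the 9. It averaged 827 ± 172 CPM in ILC1-like cells (SD, n = 3 libraries), 808 ± 204 CPM in NK-like cells (n = 6), 431 ± 98.9 CPM in gamma delta T-like cells (n = 4), 426 ± 66.8 CPM in the 882 T cells that fell in no named subset (n = 5), 332 ± 168 CPM in NKT-like cells (n = 4) and 318 ± 21.6 CPM in CD8 T-like cells (n = 4). Levels in gamma delta T-like, unnamed T and NKT-like cells lay within their spread of each other. Dendritic cells held 83.2 ± 32.5 CPM (n = 6), and B cells and hepatocytes 2.27 and 0.996 CPM on average. Of all Klrd1 UMIs 31.7% were in NK-like and 28.1% in CD8 T-like cells.

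Klrc1, the inhibitory partner of CD94, averaged 420 ± 123 CPM in ILC1-like, 234 ± 87.8 CPM in gamma delta T-like, 196 ± 54.9 CPM in NK-like, 192 ± 61.6 CPM in unnamed T, 182 ± 97.7 CPM in NKT-like and 94.4 ± 45.8 CPM in CD8 T-like cells. The middle values of that order lay within their spread of each other. Klrc2, the activating partner, averaged 218 ± 17.3 CPM in NK-like, 192 ± 37.1 CPM in ILC1-like and 119 ± 52.9 CPM in gamma delta T-like cells. It stood at 65.2 to 131 CPM in unnamed T cells and averaged 34.3 CPM in CD8 T-like cells. NK-like cells alone held 43.8% of Klrc2 UMIs but 25.6% of Klrc1 UMIs. The longest transcripts of Klrc1 and Klrc2 (1984 and 2811 bases) aligned over 1787 bases, of which 92.4% were identical, and share an exact stretch of 202 bases. Reads inside that stretch cannot be assigned to either gene. Their last 500 bases, where 3′ reads fall, share no more than 10 bases with each other. The end of 1 transcript was not compared with inner parts of the other, so how well 3′ reads separate the genes was not tested.

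Klrk1, which encodes NKG2D, was level across the innate cells, at 654 ± 48.0 CPM in NK-like and 627 ± 116 CPM in ILC1-like cells, and lower in unnamed T (344 ± 122 CPM), gamma delta T-like (271 CPM), NKT-like (248 CPM) and CD8 T-like cells (148 CPM). Klre1 averaged 837 ± 163 CPM in NK-like and 561 ± 68.9 CPM in ILC1-like cells, 375 ± 169 CPM in unnamed T cells and 135 CPM in CD8 T-like cells. Its activating partner gene Klri2 averaged 268 ± 29.9 CPM in NK-like and 103 ± 16.2 CPM in ILC1-like cells, 56.9 ± 26.6 CPM in T cells of no named subset (882 cells, n = 5) and 23.5 CPM or less in the named T-like classes. Its inhibitory partner gene Klri1 was low in every class, at 25.8 ± 15.8 CPM in gamma delta T-like, 24.4 ± 12.2 CPM in ILC1-like and 22.4 ± 10.7 CPM in NK-like cells, 3 values within their spread of each other. In NK-like cells of all libraries Klri1 gave 125 UMIs and Klri2 1603.

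Klrb1c was high in innate cells, at 623 ± 38.6 CPM in NK-like and 585 ± 98.1 CPM in ILC1-like cells, 203 ± 44.3 CPM in NKT-like cells, 199 ± 72.7 CPM in unnamed T cells and 27.2 CPM in CD8 T-like cells. NK-like cells held 54.1% of its UMIs and 70.5% of those of Klri2. Klrg1 followed another order, highest in regulatory T-like cells and then in NK-like cells (67.1 ± 28.1 CPM). Its values in those T cells are given further on.

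The 3 libraries labelled knockout were set against the 3 controls first in NK-like cells, which express the Ncr1 that drives Cre. No member passed the test: edgeR's quasi-likelihood test called 0 of 6941 genes (0%) at an adjusted p of 0.05, with 155 at an unadjusted p under 0.05, and DESeq2 called 0, with 45 at an unadjusted p under 0.05. The median log2 fold change of the 9 was -0.08, beside -0.00 over all genes tested. Klrg1 had the only unadjusted p under 0.05 of the 9, and 8 members differed by less than 0.2 on the log2 scale. Without both libraries numbered 2 edgeR called 0 genes as well, with 278 at an unadjusted p under 0.05, and the 9 members had log2 fold changes of -0.25 (Klrc1) to 0.67 (Klrg1).

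The CD94 and NKG2 genes overlapped between genotypes except Klrc2. Klrd1 had 903, 439 and 991 CPM in knockouts 1, 2 and 3, against 915, 708 and 894 CPM in controls 1, 2 and 3 (log2 fold change -0.08, SE 0.27). The lowest value of each genotype was that of library 2. Klrc1 had 239, 146 and 177 CPM in knockouts and 247, 122 and 242 CPM in controls (-0.11, SE 0.29). Klrc2 had 221, 189 and 208 CPM in knockouts and 224, 239 and 227 CPM in controls (-0.14, SE 0.19). For Klrc2 all 3 knockout values lay below all 3 control values, by a small margin; 3.99% of the genes tested showed that separation. Klrk1 had 606, 714 and 678 CPM in knockouts and 623, 606 and 695 CPM in controls (0.04, SE 0.19), so NKG2D mRNA covered the same range in both genotypes.

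Klre1, Klri1, Klri2 and Klrb1c also overlapped. Klre1 had 829, 568 and 939 CPM in knockouts and 1046, 770 and 870 CPM in controls (-0.18, SE 0.23), with library 2 lowest in each genotype. Klri2 had 296, 275 and 218 CPM in knockouts and 278, 247 and 294 CPM in controls (-0.08, SE 0.21). Klri1 ranged from 8.61 to 32.6 CPM in knockouts and from 13.8 to 36.7 CPM in controls (0.11, SE 0.44). Klrb1c, the NK1.1 gene, had the tightest values of the group. It had 611, 663 and 658 CPM in knockouts and 572, 646 and 586 CPM in controls (0.10, SE 0.18). Leaving out any 1 library kept these log2 fold changes between -0.36 and 0.61 and left every member outside the threshold.

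Klrg1 was the member with the largest difference. Its NK-like cells held 72.5, 112 and 81.9 CPM in knockouts 1, 2 and 3 (40, 13 and 57 UMIs), against 59.5, 36.7 and 40.2 CPM in controls 1, 2 and 3 (68, 19 and 111 UMIs). All 3 knockout values lay above all 3 control values, a separation in that direction found for 3.37% of the genes tested, and in either direction for 7.36%. The log2 fold change was 0.85 (SE 0.27, unadjusted p 0.00751 by edgeR's quasi-likelihood test), and the adjusted p was 1, so the difference did not pass. It ranged from 0.74 to 1.08 when each library was left out in turn. Hashtags gave few NK-like cells a mouse, 12 and 20 of the 132 in knockout 3 and 67, 93 and 24 of the 408 in control 3. Klrg1 was at 0 CPM in mouse 1 of knockout 3 and 69.2 CPM in mouse 2. Both lay below the 81.9 CPM of the whole library, so its cells not given to a mouse stood higher. The 3 mice of control 3 had 38.7, 54.9 and 56.7 CPM. With those mice as units the log2 fold change was 0.29, in a fit that left out the cells of libraries 3 without a mouse.

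**Figure D2:**
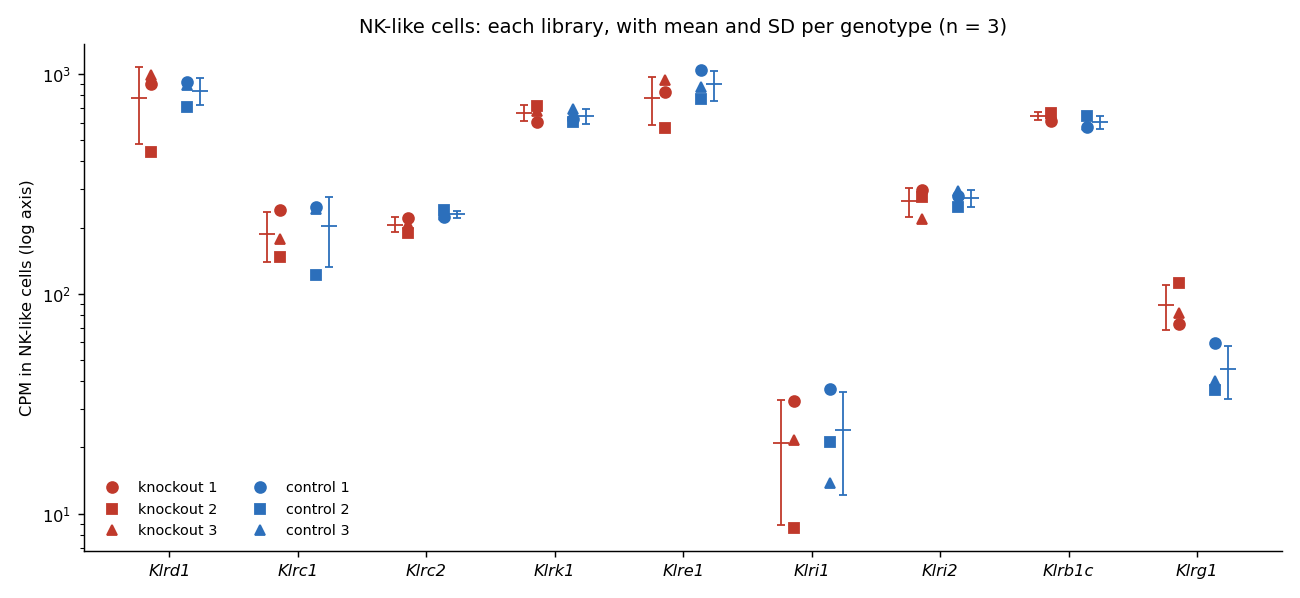
Level of the 9 genes in NK-like cells (CPM, log axis) in each library, knockout left of control, with the mean and SD of each genotype (n = 3 each). The genotypes overlap except for Klrg1, where knockouts lie at 72.5 to 112 CPM and controls at 36.7 to 59.5 CPM, and Klrc2, where they are separated by a small margin.

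Shares of NK-like cells with at least 1 UMI were compared after each cell was thinned to 1000 UMIs. Klrk1 was seen in 51.1% ± 8.84 of knockout and 48.7% ± 4.83 of control cells, and Klrb1c in 50.5% ± 0.849 of knockout and 49.6% ± 2.15 of control cells (SD over 3 libraries each). Klrd1 was seen in 46.9% ± 19.4 of knockout and 50.4% ± 8.45 of control cells, Klre1 in 46.3% ± 18.5 of knockout and 58.2% ± 7.67 of control cells, and Klrg1 in 6.04% ± 1.95 of knockout and 5.22% ± 0.692 of control cells. The knockout spread of Klrd1 and Klre1 came with the low values of knockout 2. An exact two-sided permutation test of 3 against 3 libraries gave p-values of 0.5 to 1 for the 9 shares; it cannot go below 0.1, so no share could have passed. Thinning left out 1, 6 and 8 cells of knockouts 1, 2 and 3 and 5, 13 and 8 cells of controls 1, 2 and 3. Without thinning, Klrg1 was seen in 22.3% ± 4.99 of knockout and 17.7% ± 5.61 of control cells, and Klrk1 in 86.0% ± 2.55 of knockout and 84.4% ± 6.43 of control cells. Thinned to 500 UMIs, Klrg1 was seen in 5.65% ± 2.29 of knockout and 2.14% ± 0.711 of control cells. Klrb1c was then seen in 39.0% ± 7.13 and 28.1% ± 2.25, and Klri1 in 0.253% ± 0.437 and 2.08% ± 0.246. For these genes the permutation test gave its smallest possible p of 0.1 (adjusted p 0.3), and for the other members 0.6 or more. B cells, which should lack these receptors, had Klrd1 UMIs in 0% to 0.639% and Klrg1 UMIs in 0% of thinned cells per library.

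A thinned NK-like cell showed 2.94, 2.42 and 2.80 of the 9 genes on average in knockouts 1, 2 and 3, and 2.96, 2.52 and 2.84 in controls 1, 2 and 3. Klrc1 and Klrc2, which compete for CD94, were seen together in 2.94%, 8.33% and 4.03% of cells in knockouts and 4.90%, 5.26% and 4.25% in controls. The product of their separate shares was 5.88%, 4.86% and 3.29% in knockouts and 4.23%, 2.31% and 5.11% in controls, so the joint share lay on either side of it.

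One cluster of shallow cells moved with the libraries. It held 143 of the 975 NK-like cells, with a median of 1480 UMIs against 4814.5 in the others, and made up 4.35%, 63.3% and 9.09% of NK-like cells in knockouts 1, 2 and 3 and 7.18%, 37.8% and 11.3% in controls 1, 2 and 3. Over all libraries Klrd1 stood at 329 CPM in it against 909 CPM in the other NK-like cells, Klre1 at 587 against 907 CPM and Klrg1 at 29.2 against 54.3 CPM. Klrk1 stood at 804 against 656 CPM over all libraries. By library it was at 0, 1229 and 708 CPM in this cluster of knockouts 1, 2 and 3. In that of controls 1, 2 and 3 it was at 445, 774 and 868 CPM, against 541 to 690 CPM in the other NK-like cells. The 0 came from 3 cells with 4203 UMIs in all, so values of single libraries rest on few counts. Tyrobp, the DAP12 gene, was at 267 against 2004 CPM and the nuclear RNA Malat1 at 41529 against 14278 CPM. Without this cluster edgeR again called 0 genes, with 176 at an unadjusted p under 0.05, and its part in the values of the libraries numbered 2 was not tested.

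ILC1-like cells were set against NK-like cells of the same libraries to see how the receptors divide between the main innate lymphocytes of the liver. Knockout 3, control 1 and control 3 held at least 10 cells of both classes. The calls chose ILC1-like cells in part for few conventional NK genes, among them Eomes, S1pr5 and the Ly49 genes Klra4, Klra8 and Klra9. How far that choice bears on the receptor differences was not tested. The fit called 233 of 6796 genes (3.43%), 154 higher (2.27%) and 79 lower (1.16%) in ILC1-like cells. Of the 9 members 1 was higher and 3 were lower: Klrc1 rose, and Klre1, Klri2 and Klrg1 fell. The median log2 fold change of the 9 was -0.26, beside -0.01 over all genes tested.

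Klrc1 had 279, 497 and 485 CPM in ILC1-like cells of knockout 3, control 1 and control 3, against 177, 247 and 242 CPM in NK-like cells of the same libraries, higher in 3 of 3 (log2 fold change 0.90, SE 0.17, adjusted p 0.00296 by edgeR). Klrc2 had 228, 154 and 193.1 CPM in ILC1-like cells and 208, 224 and 227 CPM in NK-like cells (-0.30, SE 0.18, adjusted p 0.578). Of the UMIs of both NKG2 genes, Klrc1 held 55.0% (exact 95% interval 38.5 to 70.7), 76.4% (69.1 to 82.6) and 71.5% (66.3 to 76.3) in ILC1-like cells of knockout 3, control 1 and control 3. In NK-like cells of those libraries it held 45.9%, 52.5% and 51.6%. The share of Klrc1 was thus higher in ILC1-like than in NK-like cells of all 3 libraries, and the interval of knockout 3 included its NK-like value; these intervals cover counting error only. In the 9 ILC1-like cells of knockout 1, too few for the fit, Klrc1 gave 39 UMIs and Klrc2 4, so the 2 knockout libraries stood on opposite sides of the controls.

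Klri2 had 101, 86.9 and 119 CPM in ILC1-like cells and 218, 278 and 294 CPM in NK-like cells of knockout 3, control 1 and control 3, lower in 3 of 3 (-1.43, SE 0.20, adjusted p 8.36e-05). Klre1, its partner, had 482, 592 and 608 CPM in ILC1-like cells and 939, 1046 and 870 CPM in NK-like cells (-0.77, SE 0.17, adjusted p 0.0111). Both genes of the activating Klre1 and Klri2 pair were thus lower in ILC1-like cells, while Klri1, at 12.7, 23.7 and 37.0 CPM in ILC1-like cells and 21.5, 36.7 and 13.8 CPM in NK-like cells, did not pass (0.45, SE 0.43, adjusted p 0.782). Klrg1 gave 0, 2 and 7 UMIs in ILC1-like cells of knockout 3, control 1 and control 3 (0, 7.90 and 14.4 CPM), against 81.9, 59.5 and 40.2 CPM in NK-like cells. The 0 in knockout 3 allows up to 38.0 CPM (3 counts), and the fitted log2 fold change was -2.24 (SE 0.44, adjusted p 0.00379).

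Klrd1, Klrk1 and Klrb1c did not pass between these classes, with log2 fold changes of -0.26 (SE 0.17), -0.09 (SE 0.18) and -0.10 (SE 0.16) and adjusted p-values of 0.622, 0.911 and 0.896. Klrb1c had 659, 474 and 622 CPM in ILC1-like cells and 658, 572 and 586 CPM in NK-like cells, overlapping ranges. Klri2 stayed under the threshold in every alternative tried, whereas leaving out 1 library gave adjusted p-values of 0.0666 and 0.127 for Klrc1 (without control 1 and control 3), 0.0797 and 0.120 for Klre1 (without knockout 3 and control 3) and 0.0948 for Klrg1 (without control 1), and DESeq2 gave 0.0523 for Klrg1.

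**Figure D3:**
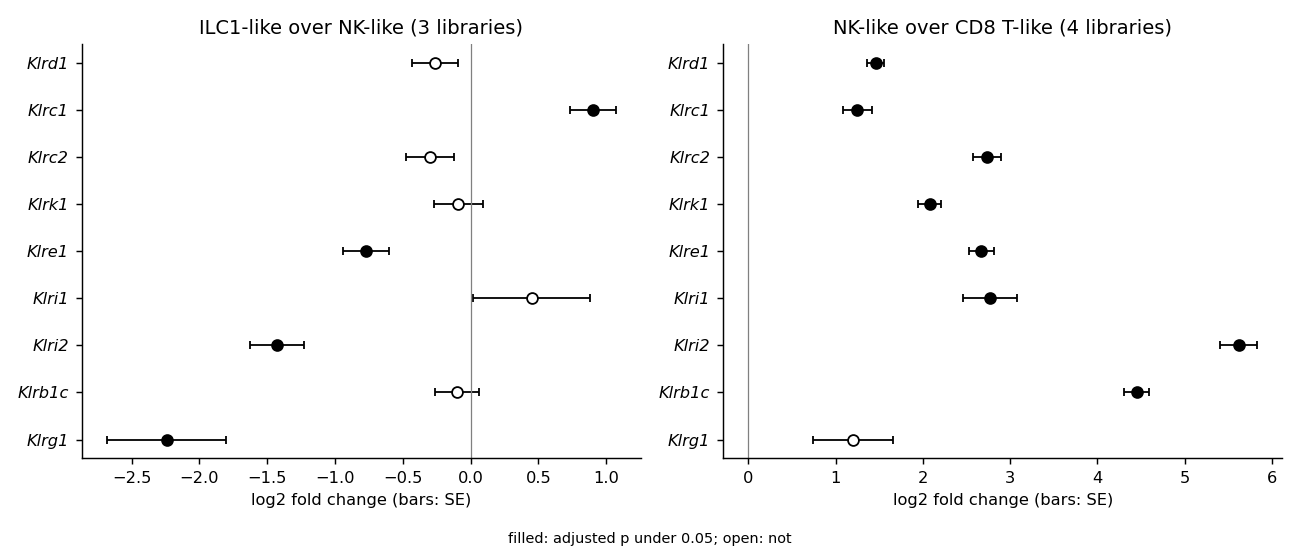
Log2 fold change and SE of the 9 genes, ILC1-like over NK-like cells (left, 3 libraries) and NK-like over CD8 T-like cells (right, 4 libraries); filled points have an adjusted p under 0.05. Klrc1 is the filled point to the ILC1-like side at 0.90, and Klri2 (-1.43) and Klrg1 (-2.24) lie farthest to the NK-like side; on the right 8 of 9 are filled.

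Knockout and control ILC1-like cells could not be compared at 10 cells per library, since knockouts 1, 2 and 3 held 9, 1 and 18. In knockout 1 Klrd1 was at 516 CPM (exact Poisson 95% interval 365 to 708, counting error only), Klrc1 at 530 CPM (377 to 724), Klrk1 at 679 CPM (504 to 895) and Klrc2 at 54.3 CPM (14.8 to 139). Among the 4 libraries with at least 5 such cells, these Klrd1 and Klrc2 levels were the lowest and this Klrc1 level the highest, and Klrk1 lay within the range of the others. With a minimum of 5 cells per library, an alternative added after the data were seen, edgeR called 1 of 3174 genes (0.0315%), which was no member. The 7 members tested had log2 fold changes of -0.46 to -0.03 and adjusted p-values of 0.972 or more.

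NK-like cells were then set against CD8 T-like cells in knockouts 1 and 3 and controls 1 and 3, the 4 libraries with at least 10 cells of both. The fit called 1663 of 9189 genes (18.1%), 869 higher (9.46%) and 794 lower (8.64%) in NK-like cells. Of the 9 members 8 were higher in NK-like cells and none was lower. The median log2 fold change of the 9 was 2.67, beside -0.01 over all genes tested.

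The largest differences were those of Klri2 (log2 fold change 5.62, SE 0.21, adjusted p 1.66e-10) and Klrb1c (4.45, SE 0.14, adjusted p 2.60e-11). Klrb1c had 34.1 and 28.5 CPM in CD8 T-like cells of knockouts 1 and 3 and 26.0 and 20.2 CPM in those of controls 1 and 3, and Klri2 had 2.27, 4.85, 1.86 and 7.24 CPM in the same order. B cells averaged 1.03 CPM of Klrb1c (at most 3.67 CPM in any library) and 0.157 CPM of Klri2 (at most 0.786 CPM). Klrb1c in CD8 T-like cells was thus low but above its level in B cells. The Klri2 values of CD8 T-like cells rested on 5 and 9 UMIs in knockouts 1 and 3 and 1 UMI in control 1, near the floor. Over all libraries Klri2 gave 84 UMIs in CD8 T-like and 6 in B cells. The 7.24 CPM of control 3 lay above the 0.786 CPM that no B cell library exceeded. B cells of knockouts 1 and 3 gave 0 UMIs. Whether CD8 T-like cells of control 1 exceed its B cells cannot be told from 1 UMI. Klri1, Klrc2 and Klre1 followed, with log2 fold changes of 2.77 (SE 0.31), 2.73 (SE 0.16) and 2.67 (SE 0.14) and adjusted p-values of 1.25e-05 or less.

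Klrk1, Klrd1 and Klrc1 had the smallest differences among the 8, and B cells averaged 1.93, 2.27 and 0.845 CPM of these genes. Klrk1 had 156 and 107 CPM in CD8 T-like cells of knockouts 1 and 3 and 173 and 157 CPM in those of controls 1 and 3 (2.08, SE 0.13, adjusted p 2.61e-08). Klrd1 had 300 CPM in both knockouts and 343 and 329 CPM in controls 1 and 3 (1.46, SE 0.10, adjusted p 7.21e-08). Klrc1 had 162 and 61.4 CPM in knockouts and 76.1 and 78.0 CPM in controls (1.25, SE 0.17, adjusted p 6.69e-05). These T cells thus carried CD94, NKG2A and NKG2D mRNA with little Klrc2, at 36.8 and 32.9 CPM in knockouts and 44.5 and 22.99 CPM in controls.

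Klrg1 in CD8 T-like cells depended on 1 library. It had 7.27 and 13.5 CPM in knockouts 1 and 3 (16 and 25 UMIs), against 13.0 and 57.1 CPM in controls 1 and 3 (7 and 544 UMIs). Control 3 was the high library and the other 3 lay together, so the genotypes overlapped in range. Between NK-like and CD8 T-like cells Klrg1 did not pass (1.20, SE 0.46, adjusted p 0.0951); without control 3 the log2 fold change was 2.68 (adjusted p 5.16e-09).

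Between genotypes, edgeR called 0 of 9850 genes (0%) in CD8 T-like cells, 2 knockout libraries against 2 controls, with 574 at an unadjusted p under 0.05; DESeq2 called 0 as well, with 194. For Klrg1 the log2 fold change was -2.07 with an SE of 0.51 (adjusted p 0.474), and the 6 other members tested had -0.42 to 0.53. When same-numbered libraries were treated as pairs, 175 genes passed (1.78%), 76 higher (0.772%) and 99 lower (1.01%), and Klrg1 was the 1 member among them, at -1.77 (SE 0.32, adjusted p 2.59e-05). That fit held 2 pairs only, so its p-values rest on few residual degrees of freedom. Without control 3 the unblocked Klrg1 value was -0.30, and without control 1 it was -2.51. Each of these 2 fits left 1 control library, so only the size of the difference is given. Within control 3 the 3 mice split by hashtag had 71.9, 61.3 and 17.8 CPM in 491, 772 and 38 CD8 T-like cells, and the 2 mice of knockout 3 had 2.71 and 29.1 CPM in 65 and 102 cells.

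The makeup of the CD8 T-like cells also differed between libraries. Clusters were built without the 9 genes, and the largest of them held 22.01% and 25.27% of CD8 T-like cells in knockouts 1 and 3 and 37.5% and 64.5% in controls 1 and 3. Klrg1 in that cluster was at 16.1 and 38.6 CPM in knockouts and 20.6 and 72.0 CPM in controls. The next largest cluster held 61.6% and 56.0% of these cells in knockouts and 35.6% and 18.0% in controls, and Klrg1 was at 2.44 and 0 CPM there in knockouts and 0 and 1.80 CPM in controls. A further cluster with 7.99% of these cells had Klrg1 at 13.55 and 6.26 CPM in knockouts 1 and 3. There it was at 12.2 and 76.7 CPM in controls 1 and 3. Control 3 was thus also the highest library inside the first and last of these clusters. With cells called by cluster the log2 fold change between genotypes was -0.81 (adjusted p 0.845), and the part of the cluster shares in the difference was not tested further.

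The knockout difference of Klrg1 had opposite signs in the 2 classes, and the difference was tested itself. The class by genotype term, in the 4 libraries with both classes, called 9 of 10000 genes (0.09%), of which 7 had a higher (0.07%) and 2 a lower (0.02%) value in NK-like than in CD8 T-like cells, with 629 at an unadjusted p under 0.05. Klrg1 had a term of 2.79 on the log2 scale (SE 0.55, adjusted p 0.0615) and did not pass. The Klrg1 term was 2.47 without knockout 1, 3.18 without knockout 3, 3.38 without control 1 and 0.67 without control 3. Each of those fits left 1 library in a genotype, so only the size of the term is given. The other 8 members did not pass.

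**Figure D4:**
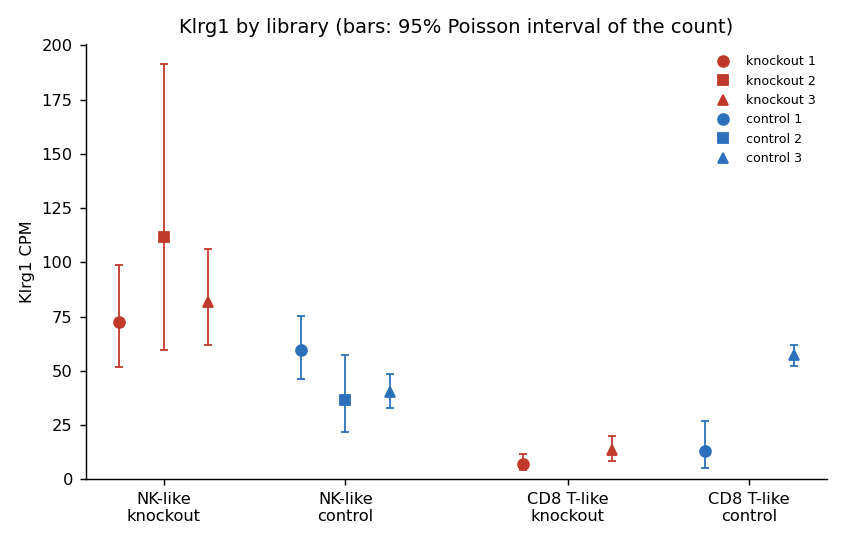
Klrg1 in NK-like and CD8 T-like cells (CPM) in each library, knockout left of control; bars are exact Poisson 95% intervals of the counts. In NK-like cells the 3 knockouts (72.5 to 112) lie above the 3 controls (36.7 to 59.5), and in CD8 T-like cells control 3 (57.1) stands above the other 3 libraries (7.27 to 13.5).

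Regulatory T-like cells were T-like cells with at least 1 UMI of Foxp3 and none of Cd8a or Cd8b1. Klrg1 reached its highest level in them. It stood at 253 CPM in the 11 such cells of knockout 1 (41 UMIs, exact Poisson 95% interval 181 to 343) and at 245 CPM in the 40 of control 3 (64 UMIs, 189 to 313). The other 4 libraries held 5 cells or fewer of this class. Klrd1 averaged 1.91 CPM there. Unthinned, Klrg1 was seen in 63.6% of these cells in knockout 1 and 47.5% in control 3, against 0% to 0.292% of dendritic cells per library. NKT-like, CD4 T-like and gamma delta T-like cells held 6.95, 11.8 and 20.7 CPM.

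Klrd1 and Klrk1 were also found in dendritic cells and in monocytes and macrophages. Klrd1 averaged 83.2 ± 32.5 CPM in dendritic cells and 57.2 ± 36.2 CPM in monocytes and macrophages (n = 6 libraries each). Klrk1 averaged 63.0 ± 14.3 and 67.2 ± 44.1 CPM in the same order. For both genes these classes lay within their spread of each other. Klrc1 averaged 11.7 CPM in dendritic cells and 38.4 ± 32.1 CPM in monocytes and macrophages. Clusters built without the 9 genes divided the 1449 dendritic cells, and the one highest in Xcr1 held 758 cells, 52.3% of the class. The dendritic markers Xcr1, Clec9a and Cd209a stood at 196, 220 and 143 CPM in it and were seen in 9.02%, 15.3% and 15.7% of its thinned cells. Xcr1 and Clec9a are known from cross-presenting dendritic cells and Cd209a from others, so the cluster was mixed and was given no cell type name. There Klrd1 stood at 145 and 114 CPM in knockouts 1 and 3 and 178 and 117 CPM in controls 1 and 3. Klrk1 stood at 129 and 81.7 CPM in knockouts and 131 and 105 CPM in controls. Klri1 stood at 48.3 and 24.6 CPM in knockouts and 35.2 and 25.4 CPM in controls. Levels of all 3 genes overlapped between genotypes. After thinning, 13.5%, 9.70% and 5.60% of the cells of this cluster had a UMI of Klrd1, Klrk1 and Klri1.

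The other members were low in that cluster, with Klre1 at 7.55 CPM, Klri2 at 6.04 CPM, Klrb1c at 1.06 CPM (7 UMIs), Klrc1 at 1.81 CPM and Klrg1 at 0. The NK and T cell genes Gzma, Ncr1 and Cd3e were at 3.92, 1.81 and 3.62 CPM. Klri1 gave 219 UMIs and Klri2 40, against 125 and 1603 in NK-like cells, so the balance of these partner genes was turned round. Klrd1 and Klrb1c gave 459 and 22 of the 5342539 UMIs in dendritic cells of control 3. They gave 2467 and 1616 of 2759762 in its NK-like cells and 333 and 89 of 2965262 in its empty droplets. Klrd1 was thus at 112 CPM in the empty droplets, above the 85.9 CPM of the dendritic cells, and Klrb1c at 30.0 CPM in the droplets. How far RNA from outside the cells enters the levels of dendritic cells or of monocytes and macrophages was not tested. A further cluster of 232 cells (16.0% of the class) was highest in Siglech, known from plasmacytoid dendritic cells (2259 CPM), and also held Clec9a and Cd209a (130 and 121 CPM) but no Xcr1 UMI. In it Klrd1 stood at 256 and 290 CPM in knockouts 1 and 3 and 208, 108 and 272 CPM in controls 1, 2 and 3. Klrk1 was at 17.7 CPM, Klri1 at 0 and Klrb1c at 1.86 CPM in this cluster, where Klrd1 was thus present with little Klrk1 and no Klri1 UMI. Dendritic cells held 36.9% of all Klri1 UMIs, against 20.5% in NK-like cells.

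**Figure D5:**
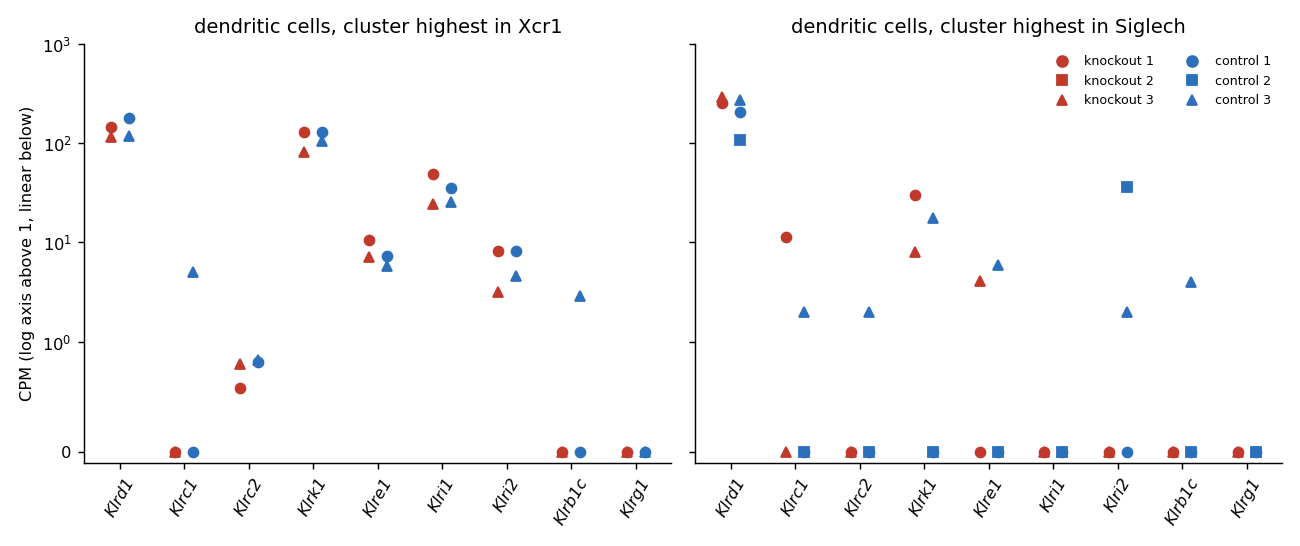
Levels of the 9 genes (CPM) in 2 dendritic clusters, those highest in Xcr1 and in Siglech. The first holds Klrd1, Klrk1 and Klri1 (135, 112 and 33.1 over all libraries) and the second Klrd1 (266), with Klrb1c near 0 in both.

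The genes through which these receptors signal were read from a list of 19 adaptors and signalling partners. In NK-like cells 0 of the 19 passed between genotypes, with a median log2 fold change of -0.04; the smallest unadjusted p-values belonged to the kinase gene Zap70 (0.31, SE 0.26), the phosphatase gene Ptpn11 (-0.26, SE 0.28) and the kinase gene Fyn (-0.21, SE 0.23), all with an adjusted p of 1. Between ILC1-like and NK-like cells 0 were higher and 3 lower: Syk (-1.01, SE 0.26, adjusted p 0.0281), Fyn (-0.70, SE 0.18, adjusted p 0.0281) and Cd247, the CD3 zeta chain (-0.86, SE 0.23, adjusted p 0.0442). Syk stood at 25.3, 67.1 and 61.6 CPM in ILC1-like cells of knockout 3, control 1 and control 3, against 109, 106 and 122 CPM in NK-like cells. Between NK-like and CD8 T-like cells 8 were higher and 6 lower, Tyrobp and Fcer1g being markers that defined the NK-like class. Syk (3.87), Lat2 (2.84) and Plcg2 (2.76) were higher in NK-like cells, and Lat (-3.19), Zap70 (-0.52) and Hcst (-0.47), the DAP10 gene, were lower.

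Of 18 further lectin receptor genes outside the Ly49 family 7 could be tested in NK-like cells, and 0 passed between genotypes (median log2 fold change -0.05). Clec2d had -0.18 (SE 0.21), Klrb1f -0.16 (SE 0.20) and Klrb1b 0.20 (SE 0.32). Klrb1b, an inhibitory relative and neighbour of Klrb1c, was the only 1 of the 7 called between ILC1-like and NK-like cells. It had 266, 383 and 444 CPM in ILC1-like cells of knockout 3, control 1 and control 3, against 79.0, 70.8 and 121 CPM in NK-like cells (2.00, SE 0.19, adjusted p 6.02e-07), while Klrb1c did not pass. Between NK-like and CD8 T-like cells 4 were higher (Klrb1b 4.92, Klrb1a 4.37, Klrc3 3.09 and Klrb1f 3.00) and Cd69 was lower (-0.63).

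Ligand genes were read as levels per class. H2-T23, which encodes Qa-1, averaged 140 ± 48.7 CPM in NK-like, 224 ± 97.5 CPM in ILC1-like, and 160 ± 82.8 CPM in CD8 T-like cells, and 13.1 ± 5.16 CPM in hepatocytes. The NKG2D ligand genes were low in hepatocytes, with Raet1e at 5.73 ± 2.98 CPM and Ulbp1 at 0.179 CPM, and H60c was at 0. Raet1e stood at 78.9 ± 13.8 CPM in B cells and 29.0 ± 13.7 CPM in NK-like cells, and Ulbp1 at 48.7 ± 11.3 CPM in NK-like cells. Of the Klrg1 ligand genes, Cdh1 stood at 63.6 ± 12.9 CPM and Cdh2 at 120 ± 18.6 CPM in hepatocytes, against 2.02 and 0.714 CPM in NK-like cells. Of 13 ligand genes 7 were tested in NK-like cells between genotypes and 0 passed; Raet1e had 0.38 (SE 0.41), H2-K1 -0.19 (SE 0.24) and H2-Q7 -0.17 (SE 0.22).

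Likeness across cell classes was measured as the Pearson correlation of log2(CPM + 1) over 16 classes, among 7665 genes, for the members with at least 50 CPM in NK-like cells. The classes share libraries, so r is a description. The most alike genes outside the 9 were Fasl (0.966), Samd3 (0.961) and Xcl1 (0.955) for Klrd1, Samd3 (0.980) for Klrc1, Klrb1f (0.972) for Klrc2, Gzma (0.982) for Klre1, Ncr1 (0.962) for Klri2 and Klrb1f (0.977) for Klrb1c. Samd3, Gzma and Ncr1 are NK markers, of which the first 2 were used to define the NK-like class. Members other than Klrg1 correlated with each other at 0.834 to 0.987, the highest being Klrd1 with Klrk1. Klrg1 correlated with them at 0.249 to 0.473, and was most like Tigit (0.908), Tnfrsf9 (0.874) and Sh2d1a (0.872).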

How the data were processed

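The 6 single-cell mRNA libraries of mouse liver were analysed. The deposited matrices hold raw counts of unique molecules (UMIs) per gene and barcode, which the authors produced in Cell Ranger, version 7.0.1 for libraries 1 and 2 and version 9.0.1 for libraries 3, per the file headers. Version 9.0.1 and the build GRCm39 are named in the submitters' processing notes. The matrices of libraries 3 hold all barcodes and their hashtag counts, which stayed out of totals. The members and gene lists were chosen with earlier results of these data known, and the thresholds that define cell classes were set after the data were seen.

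Barcodes with at least 500 UMIs, at least 300 genes and at most 20% mitochondrial counts were kept. In libraries 3 those not distinct from barcodes of at most 100 UMIs were removed (10000 simulations, false discovery rate 0.001; 121 in knockout 3 and 141 in control 3). Cells with the highest doublet scores were removed at 0.8% per 1000 cells (0 to 798 per library), so doublets may remain. NK-like cells held at least 3 distinct markers of 18 (Ncr1 not used), at least 1 UMI of 9 core NK genes and at most 1 UMI of 4 T cell genes. They also held a larger share of the NK markers than of the T cell markers. ILC1-like cells met the same rules and held at least 2 of 11 ILC1 markers. Those had to be more than 2 times as many as their detected genes among 7 conventional NK genes (Eomes, Itga2, S1pr5, Klra4, Klra8, Klra9 and Cma1). T-like cells held at least 2 T cell UMIs. Clusters (2000 variable genes, 30 components, 15 neighbours, Leiden resolution 1, without the 9 genes) served as an alternative and for the dendritic and CD8 subsets. Hashtags left 3080 cells of knockout 3 and 2631 of control 3 without a mouse.

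UMIs were summed per library and class with at least 10 cells and tested with edgeR 4.0.16 (TMM, filterByExpr, quasi-likelihood test, two-sided, Benjamini-Hochberg over all genes tested, threshold 0.05), with library as a term between classes. DESeq2 1.42.0, limma 3.58.1, R 4.3.3, Python 3.11.15, scanpy 1.11.5 and scipy 1.17.1 were used, and scripts were tested on simulated data. NK-like sums held 116217 to 2759762 UMIs per library, so a gene with 0 UMIs may reach 1.09 to 25.8 CPM (3 counts). Intervals are exact at 95% and cover counting error only. Genes named are the 9 members and, from each list, the 3 with the smallest p in NK-like cells between genotypes; list genes called between classes were named after their values were seen.

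Libraries with the same replicate number were treated as paired in one alternative. In NK-like cells the deviations of same-numbered libraries correlated at 0.294, 0.28 and 0.232, and those of other pairs at -0.238 to 0.0726; the labels do not say what the number marks. Apart from the pools, nothing says how many mice a library holds, so p-values measure the spread between libraries. Alternatives were leaving out each library or both libraries 2, DESeq2, its size factors, no filter, calls by clusters, no doublet removal, cells with an Ncr1 UMI, mice as units and other thinning.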

Additional observations from a re-analysis of the deposited data

How the results depend on the processing

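The number of genes called depended on the processing, and so did the calls of some members. In NK-like cells between genotypes 0 genes were called in every alternative except no filter on low counts (10) and the fits that leave out 1 library (0 to 1). In CD8 T-like cells the count was 96 with no filter, 175 with the replicate block and 0 to 68 when 1 library was left out. Between ILC1-like and NK-like cells it was 98 with DESeq2, 466 with cells called by clusters and 127 to 284 when 1 library was left out. Between NK-like and CD8 T-like cells it ranged from 1109 (DESeq2) to 2142 (no filter), and from 1301 to 1469 when 1 library was left out. For the class by genotype term it was 72 with no filter, 0 with DESeq2, 2 with clusters, 0 with no removal of doublets, 14 without hashtag multiplets and 21 to 56 when 1 library was left out. For ILC1-like cells between genotypes, called by clusters, it was 2. With the replicate block 0 genes passed in NK-like cells, and the block changed no call of a member other than Klrg1 in CD8 T-like cells. The cause of these shifts was not tested.

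The sign of small differences turned round. In NK-like cells between genotypes, without both libraries numbered 2, Klrd1 was 0.06, Klrk1 -0.05 and Klrb1b -0.02; Klrk1 was -0.01 with no filter and -0.01 without the shallow cluster; with mice as units Klrk1 was -0.09, Klrb1c -0.04, Klrb1b -0.01 and Raet1e -0.01; and Clec2d was 0.02 with clusters. Leaving out 1 library in NK-like cells moved Klrd1 between -0.30 and 0.19, Klrc1 between -0.36 and 0.05, Klrk1 between -0.03 and 0.13, Klri1 between -0.29 and 0.61, Klri2 between -0.20 and 0.05, Klrb1b between -0.02 and 0.67 and H2-K1 between -0.38 and 0.03. In CD8 T-like cells it moved Klrc1 between -0.32 and 1.05 and Klrc2 between -0.31 and 0.57. Between ILC1-like and NK-like cells it moved Klrk1 between -0.24 and 0.06 and Klri1 between -0.63 and 0.97, and clusters gave Klri1 1.23 (adjusted p 0.0374 by edgeR). For the class by genotype term it moved Klrc2 between -0.71 and 0.25, Klrk1 between -0.09 and 0.62, Klre1 between -0.11 and 0.65 and Klri2 between -1.02 and 1.50. In ILC1-like cells between genotypes Klrd1 was 0.40 with clusters. None of these values passed apart from that of Klri1 with clusters.

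With no filter on low counts Klrg1 passed in CD8 T-like cells between genotypes (-2.08, adjusted p 1.04e-06 by edgeR), between NK-like and CD8 T-like cells (1.20, adjusted p 3.08e-08) and for the class by genotype term (2.76, adjusted p 7.58e-09). Hashtag multiplets, the shallow cluster and the minimum of 5 cells were alternatives added after the data were seen. Without both libraries numbered 2 was run only for NK-like cells, since those libraries entered no other fit. For ILC1-like cells between genotypes the other alternatives were not run, because no fit at 10 cells per library could be had. The lowest depths, in NK-like cells of knockout 2 (30 cells) and ILC1-like cells of knockout 3 (18 cells), limit what could be seen for Klri1 and Klrg1.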
